A study of Rattus norvegicus with 8 samples.

Results

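Gabra5 and Cbln2 are a pair of synaptic genes that were measured in the dorsal root ganglia (DRGs) of rats with and without a peripheral nerve injury. They were taken as 2 of the 32623 gene identifiers in the count table, ENSRNOG00000010803 for Gabra5 and ENSRNOG00000013654 for Cbln2, and both were among the 16988 genes with enough counts to be tested. They were picked because both were higher after injury in earlier results from these same libraries, so their change after injury is described here without a test. The choice did not directly use the differences between male and female rats, although these share libraries with the changes behind it. The size of the change in one sex relative to the other is made of those same changes, so it is not free of the choice.

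The DRG holds the cell bodies of the sensory neurons that carry touch and pain signals to the spinal cord, together with satellite glia, Schwann cells and vessels. Gabra5 encodes the alpha5 subunit of the GABA-A receptor, a chloride channel assembled from several subunits and opened by the transmitter GABA. Receptors with this subunit are known in the brain for slow, persistent currents outside the synapse, and GABA-A receptors on sensory neurons act on their central terminals. Cbln2 encodes cerebellin 2, a secreted protein of the C1q family that binds neurexins on the presynaptic side and helps to organise synapses.

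The libraries came from adult Sprague-Dawley rats of both sexes that were either left naive or given chronic constriction injury (CCI), in which loose ligatures are tied around the sciatic nerve. There were 4 groups, naive male, CCI male, naive female and CCI female, with 2 rats in each, and a library was made from the pooled ipsilateral L4-L6 DRGs of a single rat. CCI rats were sampled on postoperative day 14. Naive rats had no sham operation, so incision and nerve ligation cannot be told apart, and the estrous stage of the females was not determined. The 8 libraries held between 39489103 and 60818457 counts. With 2 rats against 2, an exact two-sided permutation test of a single value cannot give a p below 0.333, so differences were tested with a model fitted across all genes.

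The sequence around the start site is shown for both genes because they were higher in the same libraries. The RefSeq promoter table for build GRCr8 held both of the 2 genes and gives 250 bases before and 50 bases after each start, at chr1:117516557-117516856 on the minus strand for Gabra5 and chr18:82215953-82216252 on the plus strand for Cbln2. The reads had been aligned to another build, rn6. Each sequence is written from 5′ to 3′ along its gene, and capitals mark matches to the motifs searched.
Gabra5: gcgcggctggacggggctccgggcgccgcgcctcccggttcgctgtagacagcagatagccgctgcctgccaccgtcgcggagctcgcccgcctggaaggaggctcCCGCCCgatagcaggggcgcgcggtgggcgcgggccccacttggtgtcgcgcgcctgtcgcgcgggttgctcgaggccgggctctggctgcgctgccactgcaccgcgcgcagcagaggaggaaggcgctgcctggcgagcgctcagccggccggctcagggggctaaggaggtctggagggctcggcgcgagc
Cbln2: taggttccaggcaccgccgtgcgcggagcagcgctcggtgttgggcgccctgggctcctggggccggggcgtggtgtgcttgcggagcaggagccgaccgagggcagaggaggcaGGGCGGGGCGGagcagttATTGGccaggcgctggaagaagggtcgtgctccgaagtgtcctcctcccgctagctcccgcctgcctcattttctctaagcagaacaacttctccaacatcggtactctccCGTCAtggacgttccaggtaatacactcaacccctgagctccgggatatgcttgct

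Both strands were searched for 6 motifs. The GC box GGGCGG was found once in Gabra5, on the strand opposite to the gene with its leftmost base at position -144 from the start site. It occurred 2 times in Cbln2, at -135 and -130, where the matches overlap by a base, and 33.1% of the 33469 promoters of the same length held it. Cbln2 also held the CCAAT box CCAAT on the opposite strand at -117, which 37.5% of promoters held, and the short core of the cyclic AMP response element, TGACG, on the opposite strand at -6, which 21.2% held. Neither window held the AP-1 motif TGANTCA, the full cyclic AMP response element TGACGTCA or the TATA box TATAAA, which were present in 7.33%, 1.83% and 14.2% of promoters. The short core lies inside the full element, so their shares overlap. The window of Gabra5 was 76.3% G and C, and 2.26% of promoters were richer, whereas that of Cbln2 was 64% G and C, and 17.3% were richer. The median over all promoters was 51.7%. These matches describe the letters of the windows only.

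Gabra5 was low in naive DRGs and several times higher after CCI in both sexes. Levels are given as counts per 1000000 counts (CPM), scaled with the trimmed mean of M-values (TMM). In naive males Gabra5 was at 8.58 CPM (449 counts) in rat 1 and 8.31 CPM (453 counts) in rat 2. In CCI males it was at 32.7 CPM (1906 counts) and 32.6 CPM (1578 counts). The pair of rats within each male group lay close together, and no naive male came near a CCI male. In naive females Gabra5 was at 13.0 CPM (615 counts) in rat 1 and 11.0 CPM (467 counts) in rat 2. In CCI females it was at 37.2 CPM (1439 counts) and 35.0 CPM (1368 counts). Female levels were thus above male levels in both conditions, with no overlap. The spread within a group was wider in females, with an SD of 11.5% of the mean in naive females and 4.29% in CCI females, against 2.31% and 0.208% in males.

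As group means, Gabra5 went from 8.45 ± 0.195 CPM (SD, n = 2) in naive males to 32.6 ± 0.0677 CPM (SD, n = 2) in CCI males, which was 3.86-fold. It went from 12.02 ± 1.39 CPM (SD, n = 2) in naive females to 36.1 ± 1.55 CPM (SD, n = 2) in CCI females, which was 3.003-fold. The difference in CPM was nearly the same in the sexes, 24.2 CPM in males and 24.1 CPM in females, while the naive level was higher in females. The fitted log2 fold change (log2FC) was 1.95 (SE 0.0646) in males, at place 162 of the 16988 genes tested when ordered from the highest. In females it was 1.58 (SE 0.111), at place 187. These values belong to the contrast that picked the gene. For all genes, CCI libraries were above both naive libraries without overlap in 36.3% of genes in males and 30.5% in females. Counting error was between 2.29% and 4.72% of the count in a library, and covers counting only. The SD between the CCI males was 0.208% of their mean, below their counting error, so it understates the error of that level.

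Cbln2 was detected at more counts and also stood higher after CCI in each sex. Naive males had 49.0 CPM (2562 counts) in rat 1 and 55.4 CPM (3021 counts) in rat 2. CCI males had 148 CPM (8651 counts) and 134 CPM (6483 counts). The rats within a male group lay further apart than for Gabra5, and the conditions did not overlap. Naive females had 65.9 CPM (3116 counts) and 69.2 CPM (2926 counts). CCI females had 134 CPM (5172 counts) and 146 CPM (5724 counts). The naive sexes did not overlap, while the CCI sexes lay within the same range.

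The group mean of Cbln2 was 52.2 ± 4.54 CPM (SD, n = 2) in naive males and 141 ± 10.2 CPM (SD, n = 2) in CCI males, 2.70-fold. It was 67.5 ± 2.34 CPM (SD, n = 2) in naive females and 140.0 ± 9.04 CPM (SD, n = 2) in CCI females, 2.07-fold. The fitted log2FC was 1.44 (SE 0.0972) in males, at place 249, and 1.04 (SE 0.0847) in females, at place 454. Here too the values describe the contrast behind the choice. The smallest fold between any CCI rat and any naive rat of its sex was 2.41 in males and 1.93 in females for Cbln2, and 3.79 and 2.69 for Gabra5.

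**Figure D1:**
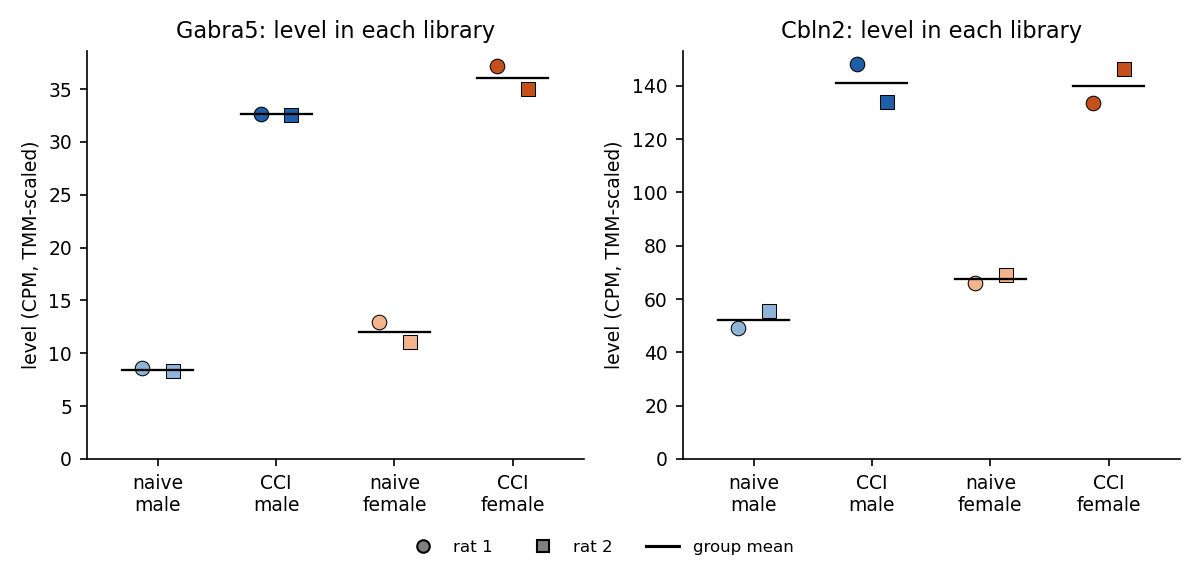
Level of Gabra5 (left) and Cbln2 (right) in each of the 8 libraries, in TMM-scaled CPM on a linear axis from 0. Circles and squares are rats 1 and 2 of a group, and the line is the group mean. All CCI libraries lie above all naive libraries for both genes. The CCI males and females overlap for Cbln2 and not for Gabra5.

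Ordered by group mean, Gabra5 ran from naive males through naive females and CCI males to CCI females. Cbln2 had the same order at the bottom, with the 2 CCI groups level at the top. Of the neighbours in these orders, only the step from naive females to CCI males was larger than the gaps between the sexes, with 13.0 CPM as the highest naive female and 32.6 CPM as the lowest CCI male for Gabra5. The corresponding values for Cbln2 were 69.2 CPM and 134 CPM.

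The fold was larger for Gabra5 than for Cbln2 in each sex, and the proportion of the genes moved with it. The table held 5.71 and 6.67 Cbln2 counts for every Gabra5 count in the naive males, and 5.07 and 6.27 in the naive females. After CCI it held 4.54 and 4.11 in the males and 3.59 and 4.18 in the females. Every CCI library was below every naive library. Counts are not corrected for transcript length, so the ratio compares libraries and not the abundance of one transcript with the other.

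The question of a sex difference before injury was addressed by comparing naive females with naive males. Both genes were higher in both naive females than in either naive male, Gabra5 by 1.42-fold and Cbln2 by 1.29-fold in group means. For Gabra5 the fitted log2FC was 0.51 (SE 0.129, 95% interval 0.18 to 0.84). It did not pass the test (adjusted p = 0.115, edgeR quasi-likelihood with Benjamini-Hochberg adjustment over all genes). For Cbln2 it was 0.37 (SE 0.0898, 95% interval 0.14 to 0.60) with an adjusted p = 0.109 in the edgeR fit. In this comparison 12 genes, 0.0706% of those tested, passed, with an adjusted p below 0.05 and a log2FC beyond 0.5 in either direction, and 29.5% of genes had both females above both males. The call of Gabra5 depended on the model: it passed with DESeq2 (log2FC 0.52, adjusted p = 0.0449) and with edgeR fitted over all 8 libraries (log2FC 0.51, adjusted p = 0.0243). Cbln2 had an adjusted p of 0.0187 with DESeq2 and 0.0440 over all 8 libraries, and was not called because its log2FC of 0.38 and 0.37 stayed under the threshold.

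After CCI the sexes were closer in fold. In CPM the female mean of Gabra5 exceeded the male mean by 3.49, against 3.57 in naive rats. For Cbln2 these values were -0.94 and 15.3 CPM. Relative to neuron markers, described below, the gap between the sexes was not smaller after CCI for either gene. Gabra5 was 1.11-fold higher in CCI females than in CCI males, with a smallest fold between rats of 1.07, and its fitted log2FC was 0.15 (SE 0.0710, 95% interval -0.02 to 0.32; adjusted p = 0.332, edgeR). Cbln2 was at 0.993-fold, with a log2FC of -0.01 (SE 0.0802, 95% interval -0.20 to 0.19; adjusted p = 0.979, edgeR). Neither passed the test, against 180 genes or 1.06% of those tested. Both CCI females were above both CCI males in 24.7% of genes. The interval of Cbln2 leaves room for a difference of up to 0.20 on the log2 scale in either direction.

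The change after CCI was smaller in females than in males on the log2 scale for both genes, and by about the same amount. The interaction term, the female change minus the male change, was -0.36 for Gabra5 (SE 0.129, 95% interval -0.66 to -0.06; adjusted p = 0.147, edgeR). It was -0.38 for Cbln2 (SE 0.126, 95% interval -0.67 to -0.09; adjusted p = 0.129, edgeR). Both intervals lie below 0 gene by gene, but neither term passed after adjustment, which 270 genes or 1.59% of those tested did. On leaving out each library in turn the term of Gabra5 ran from -0.48 without naive female 2 to -0.24 without naive female 1, and that of Cbln2 from -0.47 to -0.29. With DESeq2 the term of Cbln2 passed (-0.39, adjusted p = 0.0471). The interaction uses the same 8 libraries as the comparisons of the sexes, so these results are not independent of each other. It is also the difference of the CCI changes behind the choice, so its test is not free of the choice. The paper lists Cbln2 among its top upregulated genes in males and not in females. A choice on the male change favours a negative term.

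**Figure D2:**
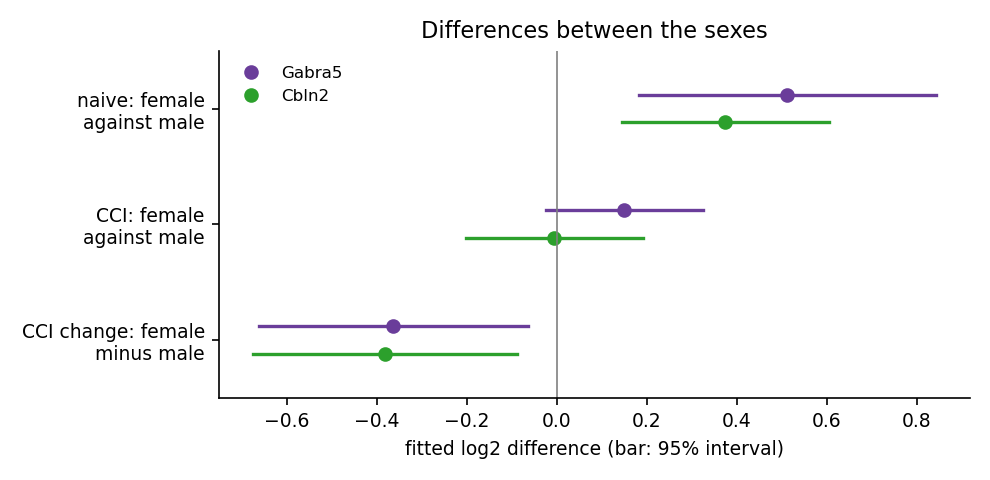
Fitted log2 differences between the sexes for Gabra5 and Cbln2 from edgeR, with 95% intervals as bars. The naive differences are above 0 (0.51 and 0.37), the CCI differences have intervals that include 0 (0.15 and -0.01), and the differences in CCI change are below 0 (-0.36 and -0.38). None passed the test after adjustment over all genes.

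Markers of the cell types of the ganglion differed between CCI and naive rats as well. Gene symbols other than those of Gabra5 and Cbln2 came from tables of genes that the study had called in these libraries, most of them as different between the sexes in naive rats or in the change after CCI. The markers and list genes described from here on were therefore partly picked by the differences that are tested, and their counts cannot be read against the shares over all genes printed beside them. In bulk tissue, fewer cells of a type and less RNA per cell cannot be told apart. Of 10 listed markers of sensory neurons, 4 could be paired with an identifier: Uchl1, a ubiquitin hydrolase abundant in neurons, the neurofilament genes Nefl and Nefm, and Avil, which encodes advillin. None was at 0. Their summed level ran from 13143 to 14519.5 CPM in naive males, 20899.8 to 21563.6 CPM in CCI males, 15386.2 to 16371 CPM in naive females and 16047.5 to 19470.1 CPM in CCI females. In the edgeR fit of the males, all 4 were called higher after CCI. Of all genes, 9.05% were called higher in males and 21.6% in either direction. In females 0 of 4 were called, and 5.69% of all genes, with 1 of the 4 at an unadjusted p under 0.05 and 0 called by DESeq2. Without CCI male 1 no gene at all was called in males, and the adjusted p of the 4 markers lay between 0.0502 and 0.104. Without CCI male 2 the calls of Uchl1, Nefl and Nefm were lost, and without naive male 1 that of Nefl.

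Schwann cell markers were lower after CCI. Mbp, Mag, Prx and Drp2, which encode myelin proteins and their partners, were 4 of 7 listed. They summed to between 10552 and 12852.3 CPM in naive males and between 3148.82 and 3297.69 CPM in CCI males. In females they went from between 7358.94 and 9064.83 CPM to between 4027 and 5288.58 CPM. The edgeR fit called 4 of 4 lower in males, and 1 of 4 (Mbp) in females. In males 12.5% of all genes were called lower. In females 5.69% of all genes were called in either direction and 3.69% were called higher. These shares say nothing of markers paired through called genes. The male calls were lost without CCI male 1 and the female call without CCI female 2 (adjusted p = 0.141). The hemoglobin and heme genes Hbb, Hba1 and Alas2 summed to 1048 to 1574 CPM in naive females and 101 to 1102 CPM in naive males, against 130 to 195 CPM in the CCI libraries. All 3 were called lower in females, with log2FC from -3.15 to -2.73, and 0 of 3 in males, where 0 had an unadjusted p under 0.05, DESeq2 called 0 and the values ran from -1.74 to -1.69. The female calls were lost in the edgeR fit over all 8 libraries, at an adjusted p from 0.0591 to 0.110. The fibroblast genes Col1a1, Col3a1, Dcn and Pdgfra summed to 1779 to 1829 CPM in CCI males and to 2489 to 2983 CPM in the other groups, and the satellite glia gene Fabp7 was at 46.1 to 63.5 CPM in CCI libraries and 80.2 to 106 CPM in naive ones. Mybpc1, a skeletal muscle gene, was at 12.5 and 13.9 CPM in CCI males and at most at 1.41 CPM elsewhere. The nociceptor genes Calca and Tac1 summed to 783 to 989 CPM in naive males, 1669 to 1722 CPM in CCI males, 994 to 1383 CPM in naive females and 1420 to 1484 CPM in CCI females. P2rx3, of non-peptidergic nociceptors, was at 358 to 375, 605 to 622, 491 to 505 and 614 to 631 CPM in the same order. Nefh and Pvalb are genes of myelinated afferents. Nefh rose in males by 0.65 (edgeR adjusted p = 0.0163) and had 0.23 in females, while Pvalb fell in females by 0.84 (edgeR adjusted p = 0.0105), from 170 and 138 CPM to 77.5 and 95.7 CPM, and had 0.06 in males. The male call of Nefh and the female call of Pvalb were each lost on leaving out 2 of the 4 libraries of the comparison in turn. Over these settings the log2FC of Nefh ran from 0.51 to 0.79 and that of Pvalb from -0.99 to -0.69. No listed marker of macrophages, endothelium or central nervous tissue could be paired with an identifier.

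Both genes were also expressed relative to the neuron markers. Gabra5 stood at 0.653 and 0.572 CPM per 1000 CPM of the 4 markers in naive males and at 1.56 and 1.51 in CCI males. It stood at 0.845 and 0.674 in naive females and at 2.32 and 1.798 in CCI females. Each CCI library remained above each naive library of its sex on this scale, with log2 differences of 1.33 in males and 1.44 in females. In CPM such separation held for 36.3% of genes in males and 30.5% in females, and the share on this scale is not given here. Cbln2 stood at 3.73 and 3.82 in naive males, 7.09 and 6.20 in CCI males, 4.28 and 4.23 in naive females and 8.33 and 7.52 in CCI females. Its log2 differences were 0.81 in males and 0.90 in females. On this scale the female change was not smaller than the male change: the difference between the sexes was 0.11 for Gabra5 and 0.081 for Cbln2, against -0.36 and -0.38 in CPM. The direction of the difference in CCI change therefore depended on the scale. The 4 markers had negative interaction terms themselves, from -0.54 to -0.37, of which edgeR called 0 and DESeq2 called 4. They were paired through called genes, and division by them raises the term of any gene. The turn of sign is therefore not a result particular to Gabra5 or Cbln2.

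The comparison of CCI females with CCI males also moved on the neuron scale, to a log2 difference of 0.41 for Gabra5 and 0.25 for Cbln2. The CCI sexes did not overlap for either gene. In CPM both CCI females were above both CCI males in 24.7% of genes, and the share on the neuron scale is not given here. The naive difference narrowed to 0.30 and 0.17. Most of the marker sum came from the neurofilament genes, with Nefl at 5630 and Nefm at 6241 of 13831 CPM in the naive male means. Neurofilament genes are themselves known to respond to nerve injury, so the marker sum is not a count of neurons, and the 4 markers are those that could be paired through called genes. The part of the markers in the difference between the sexes was not tested.

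**Figure D3:**
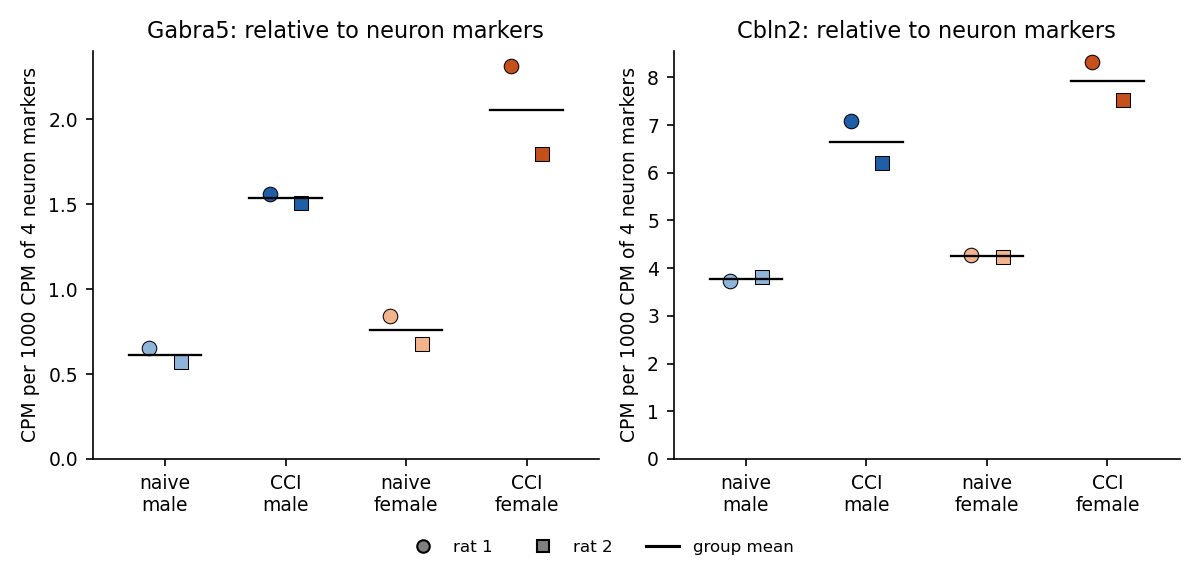
Gabra5 (left) and Cbln2 (right) in each library as CPM per 1000 CPM of the 4 summed neuron markers Uchl1, Nefl, Nefm and Avil, on linear axes from 0. Circles and squares are rats 1 and 2, and the line is the group mean. CCI groups remain above naive groups, and CCI females lie above CCI males for both genes.

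Of 16 listed GABA-A receptor subunits, 4 are described here: Gabra5, the other alpha subunits Gabra2 and Gabra4 and the gamma subunit Gabrg1. Alpha and beta subunits together form the GABA site, and the gamma subunit takes part in anchoring the receptor at the synapse. The 3 others were paired through the tables of called genes, so they were partly picked by their own differences, and the remaining subunits were not analysed here.

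In males, 2 of the 3 rose after CCI in the edgeR fit, and 9.05% of all genes were called higher. Gabra2 rose by a log2FC of 1.05 (SE 0.0852, adjusted p = 0.00565), from 84.6 and 95.7 CPM to 186 and 187 CPM. Gabrg1 rose by 0.94 (SE 0.0753, edgeR adjusted p = 0.00565), from 41.9 and 45.4 CPM to 85.0 and 82.2 CPM. For both genes the conditions did not overlap, and CCI males lay above naive males without overlap in 36.3% of all genes. Gabra4 had 0.50 and did not pass (edgeR adjusted p = 0.0549). The median log2FC of the 3 was 0.94, against -0.01 over all genes, and the value of Gabra5 was 1.95. Without CCI male 1 each of the 2 calls was lost, at an adjusted p of 0.0502.

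In females, 1 of the 3 rose after CCI, and 3.69% of all genes were called higher. This was Gabra2, with a log2FC of 0.55 (SE 0.0806, edgeR adjusted p = 0.00875), from 97.4 and 98.4 CPM to 138 and 150 CPM. The call was lost without CCI female 1 (adjusted p = 0.0741) and without CCI female 2 (adjusted p = 0.155). Gabra4 was at -0.43 and Gabrg1 at 0.30, and neither passed. The median was 0.30, against -0.02 over all genes, while Gabra5 had 1.58. Gabra5 therefore had the highest value of the 4 subunits in both sexes, in the contrast that picked it.

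**Figure D4:**
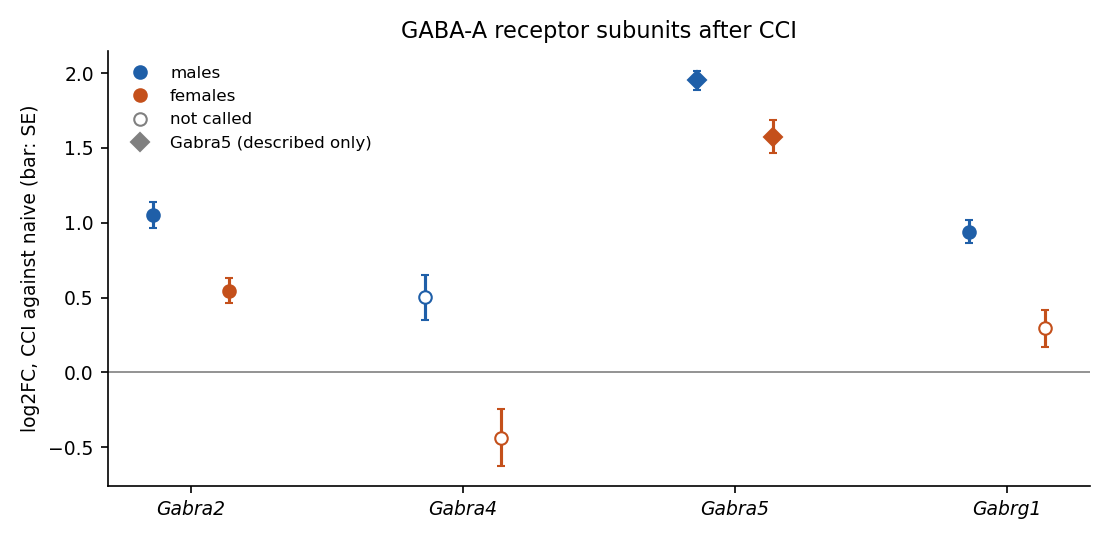
Fitted log2FC of CCI against naive for 4 GABA-A receptor subunits, in males and females, with the SE as bars. Filled circles passed the test and open circles did not, and Gabra5 (diamonds) is described without a test. In males 2 of the 3 other subunits rose and in females 1 did, while Gabra5 was at 1.95 and 1.58.

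Relative to the neuron markers, the male log2 differences of the 3 subunits ran from -0.12 for Gabra4 to 0.43 for Gabra2, against 1.33 for Gabra5. In females they ran from -0.58 for Gabra4 to 0.40 for Gabra2, against 1.44. The summed neuron markers themselves differed by 0.62 in males and 0.16 in females.

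The interaction term was negative for all 3 subunits, from -0.92 for Gabra4 to -0.49 for Gabra2. In the edgeR fit 0 of 3 passed, where 0.547% of all genes were called lower, although 3 had an unadjusted p under 0.05. DESeq2 called 2 of the 3, and 1618 genes in all. The median of the 3 was -0.63, and Gabra5 had -0.36. For Gabra4 both CCI males were above both naive males and both CCI females below both naive females, and 6.40% of all genes lay in such opposite directions, either way round, without passing the interaction test. Between naive sexes 0 of 3 were called by edgeR and 0 by DESeq2, and 1 had an unadjusted p under 0.05. Their log2FC values were all above 0, with a median of 0.31. Between CCI sexes 0 of 3 were called by edgeR and 0 by DESeq2, although 3 had an unadjusted p under 0.05, and the values were all below 0, with a median of -0.37. Gabra5 was above 0 in both comparisons. The CCI comparison in a sex and the sex comparison in a condition share libraries.

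Among proteins related to cerebellin 2, C1ql1, which encodes a C1q-like synaptic organizer, was the single other gene of 8 listed that could be paired with an identifier. It was at 0.165 to 0.210 CPM in naive males and 0.0857 to 0.186 CPM in CCI males, which is low. It was at 1.04 and 1.68 CPM in naive females and at 0.879 and 2.35 CPM in CCI females. Every female was above every male. Of all genes, 29.5% had both females above both males in naive rats and 24.7% in CCI rats, and the joint share is not given here. C1ql1 was itself paired through the tables of called genes. The log2FC between the sexes was 2.84 in naive rats (SE 0.423, edgeR adjusted p = 0.0954) and 3.58 in CCI rats (SE 0.645, edgeR adjusted p = 0.0734), and neither passed. DESeq2 called both. After CCI it was at -0.47 in males and 0.25 in females and did not pass in either, beside 1.44 and 1.04 for Cbln2. The 10 listed partners of cerebellins, such as neurexins, were not analysed here.

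Of the genes for GABA synthesis, breakdown and transport, 1 of 9 listed is described. Slc6a13, a GABA transporter known from meningeal cells, fell after CCI in males by 1.06 on the log2 scale, from 45.9 and 46.4 CPM to 21.7 and 22.5 CPM (edgeR adjusted p = 0.00565). In females it did not pass, with a value of -0.37. The GABA-B receptor subunit Gabbr2, 1 of 5 listed, rose in males by 0.63 (edgeR adjusted p = 0.00784) and had 0.26 in females. Of the chloride cotransporters, 2 of 8 were paired, and Slc12a4 fell in males by 1.03 (edgeR adjusted p = 0.00569) and had -0.24 in females. Slc12a7 did not pass in either sex. The male calls of Slc6a13 and Slc12a4 were lost without CCI male 1 at an adjusted p of 0.0502, and that of Gabbr2 at 0.0562.

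Of 36 other synaptic organizers, 7 were paired through called genes. Of these, 5 rose in males, where 9.05% of all genes did, and 1 rose in females, where 3.69% did. Flrt3, a membrane protein that binds latrophilins, rose in both sexes, by 1.197 in males (edgeR adjusted p = 0.00565) and by 1.66 in females (edgeR adjusted p = 1.39e-04). It went from 30.2 and 33.0 CPM to 100 and 101 CPM in females. Nlgn1, the postsynaptic partner of neurexins, rose by 0.82 in males and had 0.34 in females. Ntng1, a netrin-G adhesion protein, was lower in CCI females than in CCI males by a log2FC of -0.61 (edgeR adjusted p = 0.0304), where 0.536% of genes were called lower. Of the presynaptic release list, 4 of 17 were paired, and Syt4, a synaptotagmin of dense-core vesicles, rose in both sexes, by 1.39 in males (edgeR adjusted p = 0.00565) and by 1.25 in females (edgeR adjusted p = 3.33e-04). The male calls of Flrt3, Nlgn1 and Syt4 were lost without CCI male 1 (adjusted p = 0.0502). The female calls of Flrt3 and Syt4 held on leaving out each library in turn, with an adjusted p of at most 0.0168 and 0.0237. The Ntng1 difference was lost without CCI female 1 (adjusted p = 0.251) or CCI female 2 (adjusted p = 0.151), and with the replicate number as a block (-0.61, edgeR adjusted p = 0.0718).

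Over the 16 tested genes of these lists apart from the GABA-A subunits, 7 rose and 2 fell in males, beside 9.05% and 12.5% of all genes. In females 2 rose and 0 fell, beside 3.69% of all genes that rose and 5.69% that were called in either direction. DESeq2 called 2 in females, while 7 of the 16 had an unadjusted p under 0.05. Between naive sexes 0 of 16 were called by edgeR, where 7 had an unadjusted p under 0.05 and DESeq2 called 3, and 996 genes in all. In the interaction, Slc6a13 passed with 0.71 (edgeR adjusted p = 0.0483), where 1.04% of genes were called higher, and Ntng1 with -0.69 (edgeR adjusted p = 0.0412). DESeq2 called 14 of the 16, and 1618 genes in all, and 14 of the 16 had an unadjusted p under 0.05. These genes were mostly paired through a table of such differences. The share of all genes with an unadjusted p under 0.05 is not given here, so such counts cannot be read as particular to any of the lists. Flrt3 and Syt4 were the 2 of these genes that rose in both sexes. The share of all genes called higher in both sexes is not given here, so this count has no background beside it.

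**Figure D5:**
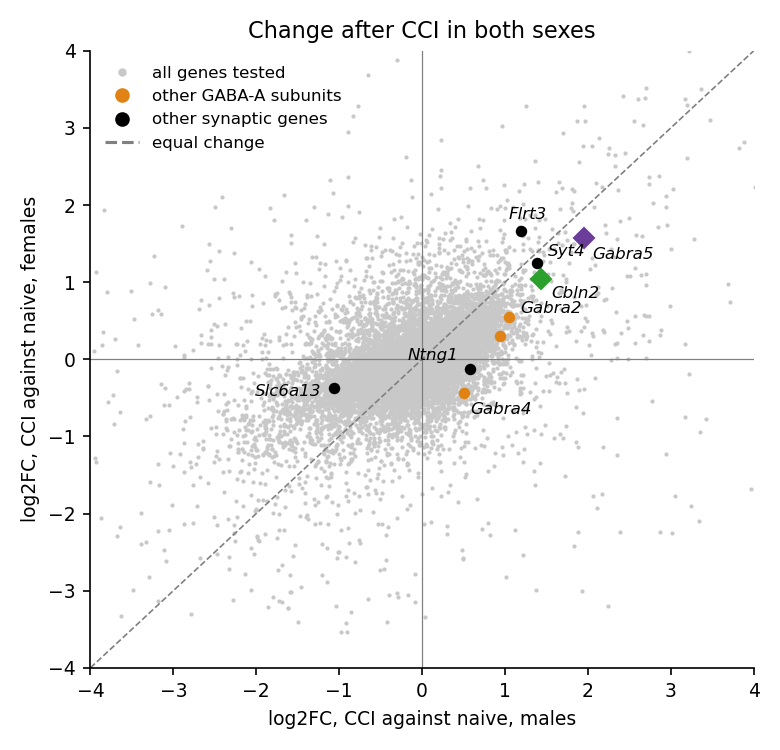
Fitted log2FC of CCI against naive in males (horizontal) and females (vertical) for all genes tested, with both axes cut at 4 and 62 genes outside them. Gabra5 and Cbln2 (diamonds) lie at 1.95 and 1.58 and at 1.44 and 1.04, near Flrt3 and Syt4. The 3 other GABA-A subunits lie to the right of the vertical axis, with female values from -0.43 for Gabra4 to 0.55 for Gabra2. The dashed line marks equal change.

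The genes whose pattern was most like that of each member were found from Pearson's r of log2 CPM over the 8 libraries, among the 13082 genes whose log2 CPM averaged 1 or more. The libraries form 4 groups, so r mainly follows the group means, and it is a description. Gabra5 and Cbln2 were picked together as higher after CCI in these libraries, so a high r between them follows from the choice. Between Gabra5 and Cbln2 r was 0.986, which put Cbln2 at place 36 for Gabra5 and Gabra5 at place 108 for Cbln2. By Spearman's rho, which was 0.786 over the 8 libraries, the places were 1140 and 2287, and by r within the 4 male libraries they were 829 and 1063. The 5 genes closest to Gabra5 had r from 0.992 to 0.997, led by ENSRNOG00000003762, and none of them could be paired with a symbol. The closest named genes, looked up after the values were seen, were Bdnf, a neurotrophin (r = 0.992, place 8), and Syt4 (r = 0.991, place 11). For Cbln2 the closest was Scn9a, the voltage-gated sodium channel Nav1.7 of nociceptors (r = 0.999), followed by 4 genes without a symbol at r from 0.997 to 0.998. An r above 0.99 was reached by 13 genes with Gabra5 and by 58 with Cbln2.

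Over the 8 libraries the 3 other GABA-A subunits were less like Gabra5 than Cbln2 was, but Cbln2 had been picked together with Gabra5 for the same change. Their r with Gabra5 ran from 0.119 for Gabra4 to 0.914 for Gabra2. Within the 4 male libraries the 3 subunits had an r with Gabra5 from 0.9497 for Gabra4 to 0.994 for Gabrg1, which was above the 0.992 of Cbln2, and within the 4 female libraries it ran from -0.874 for Gabra4 to 0.975 for Gabra2. Each of these has 4 points in 2 groups.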

How the data were processed

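RNA-seq counts per gene were deposited for DRGs of 8 rats, with 1 library a rat and 2 rats in each of the groups naive male, CCI male, naive female and CCI female. Libraries were strand-specific and poly(A)-selected. The authors aligned reads to the rat build rn6 with HISAT2, removed ribosomal RNA and counted Ensembl genes with featureCounts, whose strand setting is not given in the sources used here. CASAVA 1.8.2 is named in the submitters' processing notes. Sequencing ran in batches, but the batch of each library is not stated, so batch and group cannot be told apart. The authors resequenced samples of each batch together in a shared lane to look for batch effects, and applied no correction. Each of the 8 columns entered the fits. Libraries held 39489103 to 60818457 counts, and the counting error of each member is given beside its levels.

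From the deposited counts, genes were kept with edgeR's expression filter (a minimum count of 10 and a total of 15), which left 16988 of 32623. TMM-scaled CPM were computed, and edgeR 4.0.16 in R 4.3.3 was fitted by quasi-likelihood to the 4 libraries of each comparison, and to all 8 for the interaction. A call needed an adjusted p (Benjamini-Hochberg over all genes) under 0.05 and an absolute log2FC above 0.5, the latter not for the interaction. Log2 CPM for likeness used a prior count of 2. Scripts were tested on simulated data. Alternatives were DESeq2 1.42.0 (the authors' tool), other normalizations and filters, no fold threshold, all 8 libraries in each fit, the replicate number as a block, division by the neuron markers and leaving out each library. The edgeR version 4 quasi-likelihood fit was added after seeing the data. The p-values rest on the spread between 2 rats a group.

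The members and the gene lists were chosen with earlier results of these data known. The members were named always. GABA-A subunits and C1q-like proteins were named where tested, the 2 called genes with the largest absolute log2FC in each direction were named for each other list and comparison, and the 5 genes most like each member were looked up. Symbols were taken from identifier and symbol columns of the study's gene tables, which paired 1961 identifiers. Some list members are not reported here. No list member without a symbol was analysed here, including all 14 genes listed for receptor assembly and anchoring. Promoter sequences came from RefSeq, build GRCr8.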

Additional observations from a re-analysis of the deposited data

Results flagged for a closer look

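Of the 21 synaptic genes tested, 2 passed the interaction test in the edgeR fit, a different CCI change in females than in males. Apart from Gabra5 and Cbln2, these genes had been paired mostly through tables of genes that the study had called different between the sexes in these libraries, so they were partly picked for this pattern. The female change minus the male change, on the log2 scale, was 0.71 for the GABA transporter Slc6a13 (adjusted p = 0.0483) and -0.69 for Ntng1 (adjusted p = 0.0412). Slc6a13 lost its call on leaving out 7 of the 8 libraries in turn and Ntng1 on leaving out 6. For 3 further genes every CCI male was on one side of both naive males and every CCI female on the opposite side of both naive females, although the interaction term did not pass. The same held for 6.40% of all genes. These were Gabra4 (-0.92, adjusted p = 0.0763), the release protein Vamp1 (-0.64, adjusted p = 0.0526) and the chloride cotransporter Slc12a7 (0.41, adjusted p = 0.0911), all in the edgeR fit. Gabra5 and Cbln2 were not among these 5 genes, with interaction values of -0.36 and -0.38. The summed neuron markers differed after CCI by 0.62 in males and 0.16 in females on the log2 scale, and their part in these differences was not tested.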

How the results depend on the processing

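The levels and differences of Gabra5 and Cbln2 kept their direction under every normalization, filter and count model. Division by the summed neuron markers moved Gabra5 and Cbln2 to 0.30 and 0.17 between naive sexes, 0.41 and 0.25 between CCI sexes, 0.11 and 0.081 for the interaction, 1.33 and 0.81 in CCI males and 1.44 and 0.90 in CCI females, which turned the sign of both interactions and of Cbln2 between CCI sexes. The neuron markers had negative values themselves in the interaction and between CCI sexes, so division by them raises these values for any gene. Naive sexes passed for Gabra5 with DESeq2 (0.52) and all 8 libraries (0.51), and the Cbln2 interaction with DESeq2 (-0.39). Gabra5 moved to 1.93 in males with at least 10 counts in every library, to 8.93 CPM in naive males and 31.5 CPM in CCI males with total counts, and to 32.4 CPM in CCI males with upper-quartile scaling, each by more than the spread between rats. Other scalings shifted the median log2FC of all genes by -0.02 at most.

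Counts of calls depended on the model more than the members did. Between naive sexes 12 genes were called in the main fit, 996 with DESeq2, 906 with all 8 libraries, 130 without the filter, 1 with at least 10 counts in every library and 6 with the replicate block. Between CCI sexes 180 became 394, 284 without the filter and 68 with the replicate block. For the interaction 270 became 1618 with DESeq2, 1032 without the filter and 532 with at least 10 counts. Without a fold threshold 6447 were called in males and 1560 in females. Of the 3 GABA-A subunits other than Gabra5, DESeq2 and no filter called 2 in the interaction. Of the 16 other list genes, between naive sexes DESeq2 and all 8 libraries called 3 and no filter 1. Between CCI sexes DESeq2, no filter and no fold threshold called 2, all 8 libraries 3 and the replicate block 0. In the interaction DESeq2 called 14, no filter 9, the stricter filter 6 and the replicate block 5.

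Leaving out each library in turn gave 6 to 327 genes between naive sexes, 32 to 656 between CCI sexes, 0 (without naive male 1) to 563 for the interaction, 0 (without CCI male 1) to 3722 in males and 84 to 1836 in females. A lone sample is assumed in these fits to vary like the others. The GABA-A calls ran from 0 to 0 between naive sexes, 0 to 0 in the interaction, 0 to 2 in males and 0 to 1 in females. The other list genes ran from 0 to 1 between naive sexes, 0 to 3 between CCI sexes, 0 to 3 in the interaction, 0 to 13 in males and 2 to 3 in females. Gabra5 ran from 1.93 to 1.97 in males and Cbln2 from -0.073 to 0.063 between CCI sexes, where the values above 0 came without CCI male 1 (0.063) or CCI female 1 (0.061). Deviations of same-numbered libraries correlated at 0.129 between naive sexes, -0.0200 between CCI sexes, 0.731 in males and -0.00788 in females, over 2 pairs each, and the labels name no shared litter or day, so the numbers were not read as pairs. The column headers of naive male 1 and CCI male 1 share an extra letter a, whose meaning is not given in the sources used here. With the replicate block Gabra5 was at 0.51 (adjusted p = 0.177) and Cbln2 at 0.38 (adjusted p = 0.163) between naive sexes in edgeR, 314 genes were called in the interaction, 4478 in males and 1180 in females. Of 51 results of named list genes, DESeq2 kept 51 calls, the replicate block 48 (not Ntng1, Prx and Pdgfra between CCI sexes), and all 8 libraries 40 of 44. Depth was not lacking for the members, whose lowest count was 449.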
